A study of Mus musculus with 6 samples.

Results

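The genes examined were 10 that build the adhesive junctions of the cardiac intercalated disc: Cdh2, Ctnnb1, Ctnna1, Ctnna3 and Vcl of the adherens junction, Dsg2, Dsc2, Dsp and Pkp2 of the desmosome, and Jup, which belongs to both. They were taken by symbol: every probe set that the platform annotation assigned to 1 of these symbols alone was used, which gave 29 probe sets of 45101 and 10 genes of 18193 with such a probe set. The RNA was from ventricles of E11.5 mouse embryos of the 129SvEv strain. One group, with 3 arrays (numbered 1, 26 and 66 in their titles), was from embryos with a targeted deletion of skNAC, the long muscle form of the Naca gene, and the other, with 3 arrays (13, 23 and 57), was from wild-type littermates. The labels place the death of the knockout embryos, with cardiac defects, by E12.5, and the question asked of these genes was whether their transcripts differ between the genotypes shortly before that time. The labels do not say whether an array held 1 heart or several, or which embryos shared a litter, so p-values measure the spread between these samples. For the targeted gene, Naca, the brighter probe set gave an intensity of 8892 ± 258 in knockout against 8412 ± 142 (SD, n = 3), a log2 difference of 0.08 ± 0.08 that was -0.015 after quantile normalization. The sources used here do not say whether its probe sets lie in the skNAC exon, so they do not check the labels. Knockout 66 stood apart from the other arrays, with the lowest of the array quality weights that limma estimated, 0.33 where the others had 0.68 to 2.53, and results are given with and without it where it decided them.

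Cardiac muscle cells are joined end to end at the intercalated disc. In the adherens junction, the transmembrane protein N-cadherin holds the cells together and is tied to actin through beta-catenin or plakoglobin, alpha-catenins and vinculin. In the desmosome, desmogleins and desmocollins hold the cells together and are tied to desmin filaments through plakoglobin, plakophilins and desmoplakin. In the embryonic heart these proteins lie along much of the cell border and gather at the cell ends only later, and mutations of the desmosomal genes are known from arrhythmogenic cardiomyopathy.

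No junction gene was called different between the genotypes. Of the 10, 9 had at least 1 probe set bright enough to enter the test (a mean of log2 values above that of the middle probe set, equal to an intensity of 95.2), and Ctnna3 had none. With the filter set on the mean linear intensity instead, Ctnna3 entered as well and was not called (adjusted p = 0.973). Their log2 differences, knockout minus wild-type, ran from -0.11 for Dsg2 to 0.20 for Jup, with 4 above 0 and 5 below. The median was -0.026, beside 0.0023 over all 11661 genes tested, of which 49.6% were below 0. In limma, 0 of the 9 passed an adjusted p of 0.05 or an unadjusted p of 0.05. Over all genes the adjusted threshold was passed by 0, which is 0%, and the unadjusted one by 547, which is 4.69%. In none of the 9 were the arrays of the genotypes apart without overlap, where 10.9% of all genes had such a separation. The adjusted p of the 9 genes was 0.974 or higher. Each gene stands for its brightest probe set, signals are MAS5 intensities on a linear scale, and log2 differences are on the scale of log2(intensity + 16) with their standard errors.

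The transcripts of 7 of the genes had mean signals over 1000 on their brightest probe set, and on it the comparison was tight. Their fold differences lay between 0.926 and 1.09, and the lowest and highest ends of their 95% intervals were 0.791 and 1.24. All 7 intervals of these brightest probe sets therefore lay inside a 1.5-fold change either way. That holds for 92.2% of the 2105 genes of that brightness, a share close to that of the junction genes. Some other probe sets of the 7 genes had wider intervals that passed 1.5-fold. The second Ctnna1 probe set, with a mean of 3368, had a log2 interval of -0.61 to 0.14. The dimmest tested one of Ctnnb1, with a mean of 169, had -1.23 to 0.04. Over all genes tested the share was 54.3%. The remaining tested genes, Jup and Dsc2, had intervals that reached past 1.5-fold upward, to 1.65 and 1.62, and that of Dsc2 also passed it downward, at 0.648.

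**Figure D1:**
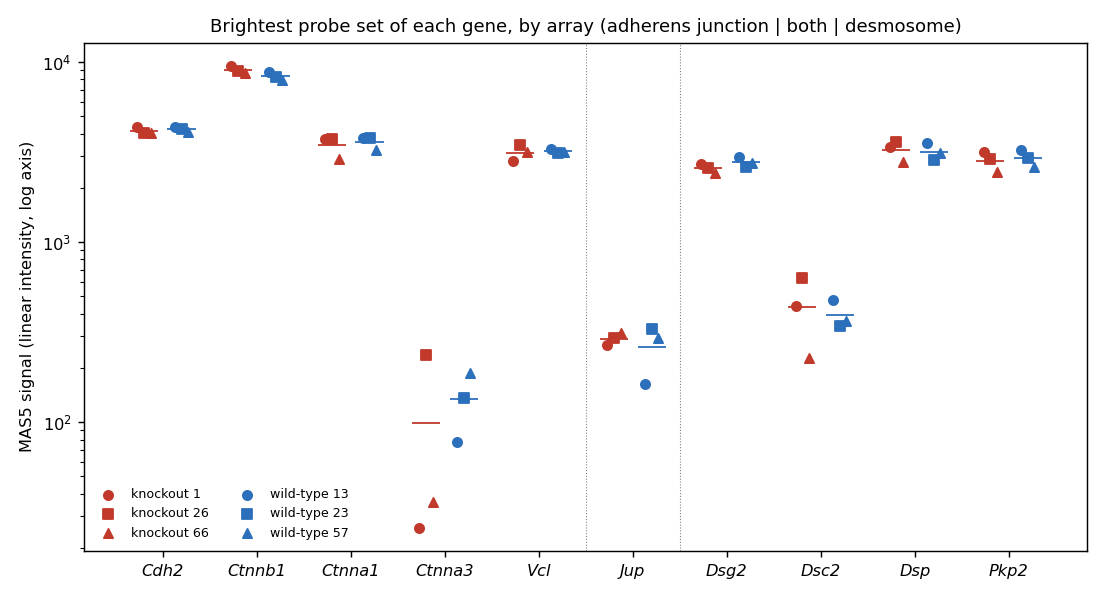
MAS5 signal (log axis) of the brightest probe set of each junction gene on each of the 6 arrays, knockout in red and wild-type in blue, with horizontal lines at the mean of each genotype. The genotypes overlap in all 10 genes, and the spread is widest in Ctnna3, from 25.9 to 235.

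Cdh2 encodes N-cadherin, the classical cadherin of heart muscle and the adhesive protein of the adherens junction. Its brighter probe set gave 4355, 4050 and 4044 on the knockout arrays 1, 26 and 66, against 4362, 4216 and 4090 on the wild-type arrays 13, 23 and 57. All 6 arrays lay within 1.08-fold of each other, the narrowest range among the 29 probe sets, and the genotypes overlapped. Between genotypes it differed by -0.026 ± 0.09 (log2, 95% interval -0.22 to 0.17, limma adjusted p = 0.995). A second probe set gave 1472 ± 135 in knockout and 1620 ± 112 in wild-type (SD, n = 3), a difference of -0.14 ± 0.12.

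Ctnnb1 encodes beta-catenin, which binds the cadherin tail and also carries the Wnt signal into the nucleus. On its brightest probe set it read 9508, 8846 and 8698 in the knockout arrays and 8737, 8258 and 7906 in the wild-type arrays. Knockout 1 and 26 lay above every wild-type array, but knockout 66 lay below wild-type 13. The difference was 0.12 ± 0.09, from -0.07 to 0.31 (limma adjusted p = 0.974), and 0.039 after quantile normalization. The other probe sets pointed the other way. One read 1496 ± 142 against 1569 ± 62.0 and gave -0.07 ± 0.11. The dimmest read 96.1, 183 and 115 against 138, 229 and 253 and gave -0.60 ± 0.29, the lowest difference of any tested junction probe set, at an unadjusted p of 0.0637 and an adjusted p of 0.975 over 22518 probe sets. The 3 readings of this gene thus spanned both directions, and their mean gave -0.18.

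Ctnna1 encodes alpha-catenin, which links beta-catenin to actin. It read 3732, 3733 and 2882 in the knockout arrays and 3780, 3774 and 3220 in the wild-type arrays. In each genotype a pair of arrays stood close together and the third, knockout 66 or wild-type 57, stood lower. This is a log2 difference of -0.06 ± 0.12 (95% interval -0.34 to 0.21), which was 0.059 without knockout 66. A second bright probe set, whose name ends in _x_at because its probes can match other transcripts, read 3618, 3524 and 2235 against 3956, 3680 and 3194 and gave -0.23 ± 0.17. Its other 2 probe sets were dim, with means of 61.2 and 18.9, and were not tested.

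Vcl encodes vinculin, an actin-binding protein that joins the adherens junction when it is under tension and is also found at cell-matrix contacts. It read 2810, 3457 and 3140 in the knockout arrays and 3274, 3108 and 3173 in the wild-type arrays. For this gene the knockout arrays lay on both sides of the wild-type arrays, which stood close together, with an SD of 324 in knockout and 83.4 in wild-type. Knockout minus wild-type was -0.027 ± 0.10, from -0.26 to 0.20, and it was 0.049 without knockout 1, the lowest array.

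Ctnna3 encodes alpha-T-catenin, the alpha-catenin of heart and testis that binds plakophilin 2 as well as beta-catenin. It had 2 probe sets, and neither entered the test. The brighter read 25.9, 235 and 35.8 in the knockout arrays and 78.0, 136 and 188 in the wild-type arrays. Knockout 1 and 66 were the lowest of the 6 arrays and knockout 26 was the highest. Fitted without a filter, it differed by -0.80 ± 0.63 on the log2 scale, with 95% bounds of -2.21 and 0.60. It was -0.32 without knockout 1, -0.48 without knockout 66 and -0.47 with a pseudocount of 64. These values exist because the gene passed the filter in those runs. Without knockout 26, the highest array, or without any of the wild-type arrays it did not pass, and those runs gave no value. The values with an array left out thus come only from runs without knockout 1 or knockout 66, its lowest arrays. Neither a large decrease nor a 1.5-fold increase could therefore be told from no change. The other probe set ranged from 9.3 to 76.0. With MAS5 detection calls not used here, signals at this level cannot be told from background.

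Jup encodes plakoglobin, the catenin that the adherens junction and the desmosome share. Its single probe set, with a name ending in _s_at, read 267, 292 and 312 in the knockout arrays and 163, 328 and 291 in the wild-type arrays. The knockout arrays stood close together, and wild-type 13 stood far below the other wild-type arrays. The difference was 0.20 ± 0.24 (95% interval -0.33 to 0.73), and without wild-type 13 it was -0.089. The direction therefore rested on that array.

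Dsg2 encodes desmoglein 2, the desmoglein of heart muscle, and it had the most probe sets of any junction gene, 6, of which 5 were tested. The brightest read 2706, 2588 and 2413 in the knockout arrays and 2973, 2612 and 2747 in the wild-type arrays. Knockout 1 lay above wild-type 23, so the genotypes overlapped. Knockout minus wild-type was -0.11 ± 0.10, from -0.33 to 0.11 (limma adjusted p = 0.974). Of the other tested probe sets, 3 were also lower and 1 was higher, between -0.28 and 0.22. The probe set at -0.28 read 196, 171 and 221 against 238, 255 and 228, and it was the 1 junction probe set of 22 tested in which the genotypes did not overlap, where 10.5% of all probe sets had such a separation. Its p was 0.157 unadjusted. Dsg2 stayed below 0 in every alternative run, between -0.15 and -0.06.

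Dsc2 encodes desmocollin 2, the partner cadherin of desmoglein 2. Its brighter probe set read 439, 634 and 226 in the knockout arrays and 479, 340 and 364 in the wild-type arrays. Knockout 26 was the highest and knockout 66 the lowest of all 6, a range of 2.80-fold, the widest among the brightest probe sets of the tested junction genes. Its log2 difference was 0.03 ± 0.30, from -0.63 to 0.69. It became 0.42 without knockout 66 and -0.29 without knockout 26. The second probe set read 161 ± 41.3 against 197 ± 16.4 and gave -0.29 ± 0.23.

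Dsp encodes desmoplakin, which ties the desmosome to desmin. Its brightest probe set read 3376, 3601 and 2773 in the knockout arrays and 3561, 2848 and 3100 in the wild-type arrays, with the genotypes interleaved. It differed by 0.033 ± 0.13 (95% interval -0.24 to 0.31). A second one read 2562, 2118 and 1680 against 2608, 2170 and 2042 and gave -0.11 ± 0.16, so the sign depended on the probe set. On both, knockout 66 was the lowest array.

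Pkp2 encodes plakophilin 2, the main plakophilin of the heart. Its brightest probe set read 3145, 2890 and 2457 in the knockout arrays and 3227, 2926 and 2619 in the wild-type arrays. The 3 arrays of each genotype covered nearly the same span. Knockout minus wild-type was -0.05 ± 0.12, from -0.32 to 0.22. The other 3 probe sets were above 0, at 0.03 ± 0.10, 0.06 ± 0.14 and 0.08 ± 0.28. The first of these read 1755 ± 34.7 in knockout and 1714 ± 76.2 in wild-type.

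**Figure D2:**
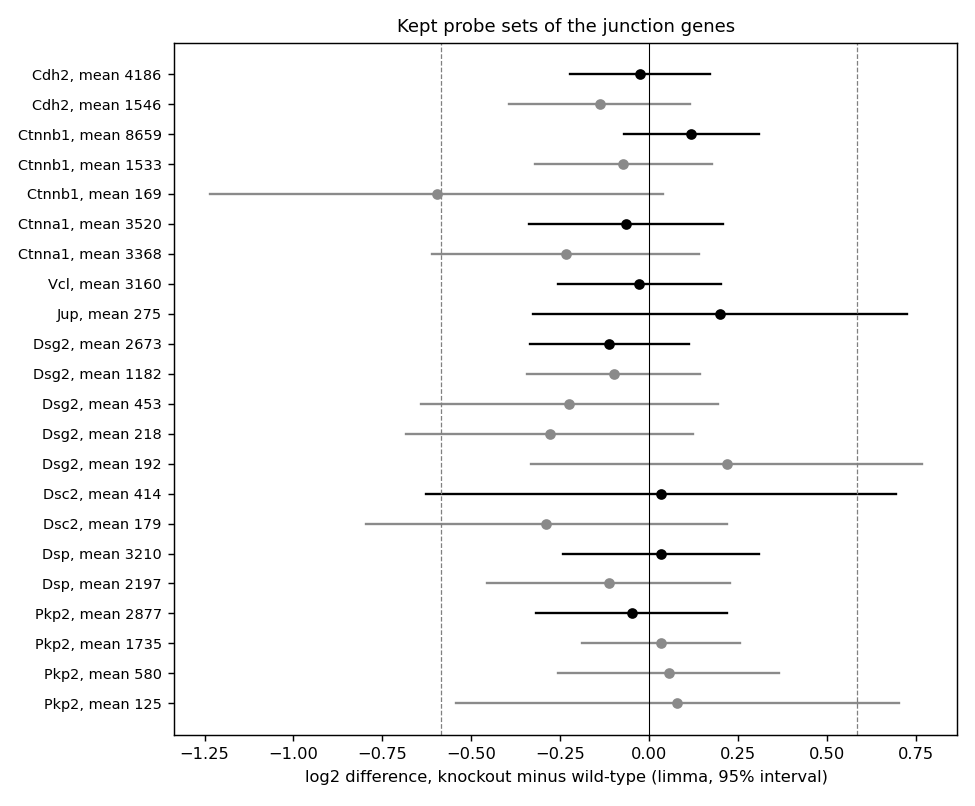
Log2 differences, knockout minus wild-type, with 95% intervals from limma, of the 22 tested junction probe sets, each labelled by its gene and its mean signal over 6 arrays. Black marks the brightest probe set of each gene, grey the others, and dashed lines a 1.5-fold change; every interval crosses 0, and the widest belong to dim probe sets.

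Taking all tested probe sets of the junction genes, 14 of 22 were below 0 and 8 above, with a median of -0.057, where 51.8% of all probe sets were below 0. In limma, 0 of the 22 passed the adjusted threshold and 0 passed an unadjusted p of 0.05, against 0% and 4.81% of all 22518 probe sets. Probe sets of 1 gene read the same RNA and are not independent. The 13 with a mean over 1000 had standard errors from 0.09 to 0.17, and the 9 dimmer ones from 0.14 to 0.30. Ctnnb1, Dsg2, Dsc2, Dsp and Pkp2 each had tested probe sets on both sides of 0, and Cdh2 and Ctnna1 had both of theirs below it.

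**Figure D3:**
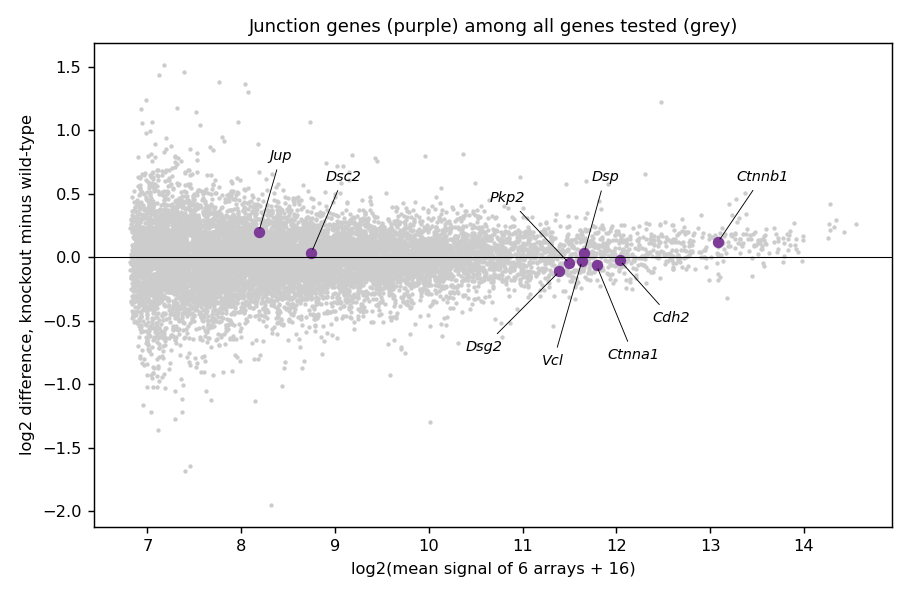
Log2 difference, knockout minus wild-type, of all 11661 genes tested (grey) against the log2 of their mean signal plus 16, with the 9 tested junction genes in purple. The junction genes lie inside the cloud, the 7 brighter ones within 0.12 of 0.

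Both junction classes were compared array by array. Each gene was expressed as its deviation from the mean of the 6 arrays, and the 4 genes particular to the desmosome were averaged, as were the 4 tested genes particular to the adherens junction. The desmosomal mean was 0.10, 0.20 and -0.33 on the knockout arrays, in the order above, and 0.19, -0.09 and -0.06 on the wild-type arrays. The adherens junction mean was 0.03, 0.05 and -0.08 in the knockout arrays and 0.06, 0.0079 and -0.07 in the wild-type arrays. The desmosomal genes ranged more widely than the adherens junction genes, in large part through Dsc2. Desmosome minus adherens junction differed between the genotypes by -0.024, beside a spread within genotypes of 0.17 (SD), and by 0.10 over the same genes without knockout 66. With the filter applied anew to the 5 arrays Ctnna3 also entered, and the value was 0.20.

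Knockout 66 was the array on which most junction genes were lowest. It was lowest in 6 of the 9 tested genes (Cdh2, Ctnna1, Dsp, Pkp2, Dsg2 and Dsc2), where it was lowest in 24.9% of all genes and in 31.5% of those with a mean over 1000. Over probe sets the count was 13 of 22, where the share was 24.4% of all. Its log2 signal differed from the mean of the other 5 arrays by -0.91 in Dsc2, -0.34 in Ctnna1, -0.26 in Pkp2, -0.24 in Dsp, -0.17 in Dsg2 and -0.06 in Cdh2. It differed by 0.01 in Ctnnb1, -0.0078 in Vcl and 0.24 in Jup. The median over the 9 genes was -0.17, beside 0.01 over all genes and -0.06 over genes above 1000. This array also had the highest median signal, 113.9, at the common trimmed mean of 250 to which all arrays were scaled. After quantile normalization, tried once the pattern had been seen, it was lowest in 3 of the 9 (Ctnna1, Pkp2 and Dsc2). The share was then 26.4% of all genes and 25.2% of those over 1000. The median over the 9 was -0.07, beside -0.0015 over all genes. After centring on array medians it was lowest in 7, where the share was 37.3% of all genes and 46.3% of those over 1000. The median over the 9 was then -0.34, beside -0.16 over all genes and -0.23 over those above 1000. How much of the pattern belongs to this sample and how much to its scaling was not tested.

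**Figure D4:**
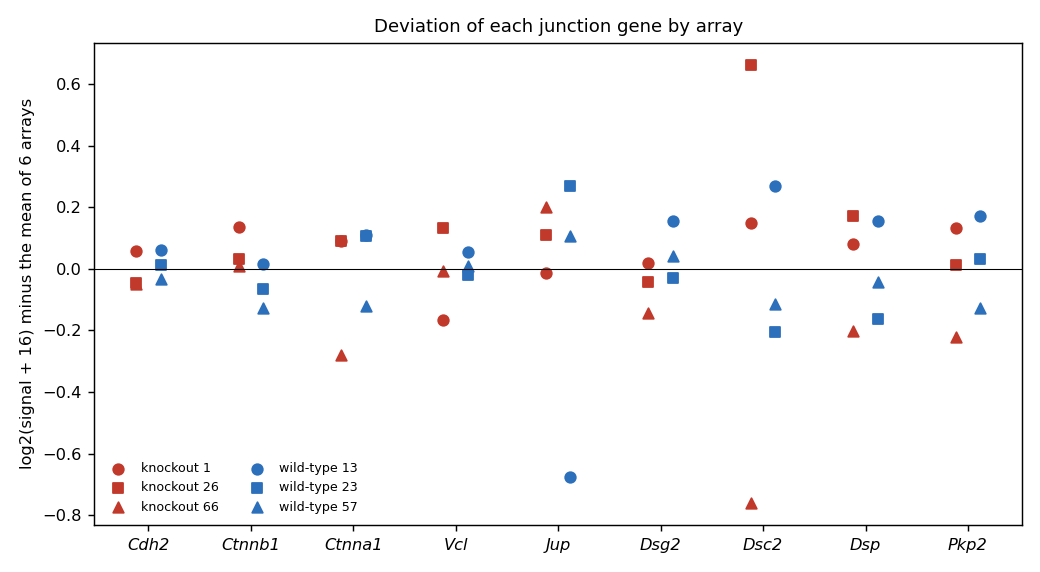
Deviation of log2(signal + 16) from the mean of the 6 arrays for the 9 tested junction genes, with knockout arrays in red and wild-type arrays in blue. Knockout 66 (red triangles) is the lowest point in 6 genes, and Dsc2 and Jup spread more widely than the others.

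Without knockout 66, 6 of the 9 genes were above 0 and 3 (Cdh2, Dsg2 and Vcl) below, and the median over the same 9 genes was 0.059. No junction gene was called without it. Ctnna1 and Pkp2 then changed sign, to 0.06 and 0.05, Dsp stood at 0.14 and Ctnnb1 at 0.14.

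Other components of the disc were taken from a list of 53 genes of cell junctions, actin linkage and gap junctions, of which 37 were tested. In limma 0 of the 37 passed the adjusted threshold and 3 had an unadjusted p under 0.05, which is 8.11% beside 4.69% of all genes. There were 15 above 0 and 22 below, and the median was -0.07. The 4 of smallest p were Perp, Nectin1, Tjp1 and Pkp4. Perp, a membrane protein of desmosomes and a target of p53, read 349, 289 and 447 in the knockout arrays and 503, 532 and 474 in the wild-type arrays, with no overlap (as in 10.9% of all genes), and gave -0.48 ± 0.17 (unadjusted p = 0.0191, adjusted p = 0.974). Nectin1, an adhesion protein of the immunoglobulin family at adherens junctions, read 208, 160 and 214 against 129, 151 and 96.6 and gave 0.58 ± 0.24, while its second probe set gave -0.032. Tjp1, the scaffold ZO-1, read 2101, 2105 and 1996 against 1745, 1577 and 1909 and gave 0.25 ± 0.11, with no overlap and an adjusted p of 0.974. Pkp4, a plakophilin-related armadillo protein, gave -0.22 ± 0.12.

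Ctnnd1, Des and Gja1 were named whatever their p, as genes whose products work alongside those of the junction genes. Ctnnd1, which encodes the p120 catenin that stabilises cadherins at the membrane, read 534 ± 63.6 in knockout and 534 ± 14.0 in the wild-type arrays. Its difference was -0.0058 ± 0.14, and its other 2 probe sets were above 0. Des, which encodes desmin, the filament to which desmosomes attach, read 1080, 1064 and 735 in the knockout arrays and 1125, 998 and 641 in the wild-type arrays, a difference of 0.08 ± 0.21, and its second probe set was below 0. Gja1, the gap junction protein connexin 43, read 3228 ± 396 against 3513 ± 266, a difference of -0.13 ± 0.11 on its brightest probe set. Of its 6 tested probe sets 5 were below 0, and in 3 the genotypes did not overlap, as in 10.5% of all probe sets. The second brightest read 2193, 1894 and 1864 against 3058, 2312 and 2238 and gave -0.34 ± 0.13 (unadjusted p = 0.0278, adjusted p = 0.975).

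The desmosomal isoforms of stratified epithelia stayed dim. Dsg1a, Dsg1b, Dsc1, Dsc3, Pkp1 and Pkp3 had 9 probe sets with 1 symbol, none of which was tested, and their signals ran from 2.8 to 123. Cdh1, the cadherin of epithelia, ranged from 37.3 to 76.2 and was not tested either. Cdh11, a cadherin of mesenchyme, was measured at 3004, 2374 and 2529 in the knockout arrays and 2771, 2780 and 2707 in the wild-type arrays, a difference of -0.07 ± 0.11. Cdh5, the cadherin of endothelium, gave 0.27 ± 0.24 and Cdh13, which lacks a cytoplasmic tail, -0.09 ± 0.15.

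Since beta-catenin also serves the Wnt pathway, 26 pathway genes and targets were examined, of which 22 were tested. In limma 0 passed the adjusted threshold and 1 had an unadjusted p under 0.05, which is 4.55% beside 4.69% of all genes. There were 12 above 0 and 10 below, with a median of 0.03. In 4 of the 22 the genotypes did not overlap, where 10.9% of all genes had such a separation. Sfrp1, a secreted Wnt antagonist, read 570, 628 and 685 in the knockout arrays and 908, 799 and 743 in the wild-type arrays on its brightest probe set. This is a log2 difference of -0.37 ± 0.14 (adjusted p = 0.974). All 5 of its tested probe sets were below 0 with no overlap between genotypes, where 10.5% of all probe sets had such a separation. The one of smallest p read 319, 343 and 448 against 661, 683 and 633 (-0.82 ± 0.16, limma adjusted p = 0.892 over probe sets). Tcf7l2, a transcription factor that binds beta-catenin, gave -0.37 ± 0.18, and Axin1, the scaffold of the complex that degrades it, gave -0.64 ± 0.33, or -0.09 ± 0.28 on its second probe set. Lgr5, a target of the pathway, gave 0.44 ± 0.25 and was higher with no overlap between genotypes, reading 137, 153 and 209 against 131, 132 and 92.0. The targets Axin2 (0.22 ± 0.22), Lef1 (0.27 ± 0.18), Ccnd1 (0.07 ± 0.12) and Myc (0.05 ± 0.24), named after their values were seen, all had overlapping arrays.

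The cells of the sample were checked with marker lists, in none of which a gene was called by limma on all arrays without array weights. All 15 markers of working heart muscle were tested, 13 had a mean over 1000, and 11 were above 0 and 4 below. Myl2, the ventricular myosin light chain, had the smallest p of these, at 22206 ± 2884 in knockout and 18772 ± 526 in wild-type. Its difference of 0.23 ± 0.10 was 0.13 without knockout 66 and -0.025 after quantile normalization. Among those below 0, Ttn gave -0.24 ± 0.17 and Tnnt2 -0.15 ± 0.09. The median difference of the 15 markers was 0.04, or -0.10 after quantile normalization. Their summed signal was 157331 to 174564 in knockout and 150533 to 164626 in wild-type. In knockout 66 the mean deviation of this list was 0.02. Markers of epicardium and simple epithelium had a median of 0.10 (13 of 15 tested, summed signal 7052 to 8142 and 6327 to 7348). Of these, 9 were above 0 and 4 below. Krt8, a keratin that binds desmosomes in simple epithelia, had the smallest p of this list and gave 0.80 ± 0.18. Its other tested probe sets gave 0.72 ± 0.26 and 0.25 ± 0.21, both with overlapping arrays. Markers of endothelium had a median of 0.04 (15 of 15, 7750 to 8265 and 7833 to 8269), and those of cushion mesenchyme and neural crest -0.19 (14 of 15, 12423 to 15699 and 15173 to 15732), with 11 of the 14 below 0 and 6, or 42.9%, at an unadjusted p under 0.05 (4.69% of all genes). Col1a1, Snai2, Postn and Pdgfrb had the smallest p. The mean deviation of this mesenchyme list was -0.20 and -0.21 on knockout 1 and 26 but 0.05 on knockout 66. It was 0.12 on each wild-type array. Without knockout 66 the median of the list was -0.26. The counts at an unadjusted limma p under 0.05 were 1 for heart muscle, 1 for epicardium, 0 for endothelium, 1 for erythroid cells and 0 for epidermis and foregut. Erythroid markers had a median of 0.13, or -0.023 after quantile normalization (7 of 10, 55530 to 75620 and 50917 to 61576), and those of epidermis and foregut -0.10 (5 of 10, 571 to 688 and 560 to 788). In a bulk sample, fewer cells of a type and less RNA per cell cannot be told apart. The 3' to 5' ratios of the control probe sets were 2.49 to 2.57 in knockout and 2.05 to 2.24 in wild-type for actin and 1.28 to 1.45 and 1.12 to 1.20 for Gapdh. Their part in the junction values was not tested.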

How the data were processed

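The deposited table holds probe set intensities on a linear scale from 6 arrays of the Affymetrix mouse 430 2.0 design, which the authors computed in GCOS by the MAS5 method, going by the submitters' processing notes. Per the labels, 500 ng of total RNA was amplified and labelled with biotin. The sources used here give no software version, scaling setting or detection call. Every array had a 2% trimmed mean of 250 and medians were 92.0 to 113.9, so signals are relative to the rest of an array.

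Intensities were transformed as log2(intensity + 16). Of 45101 probe sets (64 of them controls), the 22518 whose mean log2 value exceeded the median of non-control probe sets, equal to an intensity of 95.2, were fitted in limma 3.58.1 under R 4.3.3 (lmFit, eBayes with a trend, two-sided) without covariates, with Benjamini-Hochberg adjustment and calls at 0.05. A gene was its brightest tested probe set with 1 symbol, adjusted over 11661 genes. Members not tested were read from the fit without a filter. The labels give no batch. The number of arrays limits the precision, and the fit was tested on simulated data. The members and lists were chosen with earlier results of these data known. Named genes were all 10 members, Naca, up to 4 genes of smallest p from each list, and Ctnnd1, Gja1, Des, Tjp1 and Pkp4. Cdh1, Cdh5, Cdh11, Cdh13, the desmosomal isoforms of stratified epithelia, the Wnt targets and single probe sets of Gja1 and Sfrp1 were added after their values were seen. Gene symbols came from the platform annotation, and list genes were matched by Entrez identifier through RefSeq. Alternatives were pseudocounts of 1 and 64, no filter, a filter at the 70th percentile and one on the mean linear intensity (added after the data were seen), quantile normalization, median centring, eBayes without a trend or robust, array quality weights, averaging the probe sets of a gene, leaving out _x_at and _s_at probe sets, and each array left out. Figures were drawn with Matplotlib 3.10.9.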

Additional observations from a re-analysis of the deposited data

How the results depend on the processing

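In 18 alternatives no junction gene was called, and the lowest adjusted p was 0.427. Of 165 values of single genes, 147 kept their direction and 18 reversed. The alternative filters and eBayes settings leave a gene's log2 difference unchanged, so their values, counted among the 147, could not reverse. With array quality weights Vcl was 0.053. With probe sets averaged within genes, Ctnnb1 was -0.18, Dsp -0.040, Pkp2 0.030 and Dsc2 -0.13. When _x_at and _s_at probe sets were left out, Dsp was -0.11 and Pkp2 0.034, read from their other probe sets, and Jup had none. Leaving out 1 array moved Dsc2 between -0.29 and 0.42, Dsp between -0.045 and 0.14, Pkp2 between -0.13 and 0.049, Ctnna1 between -0.14 and 0.059, Vcl between -0.10 and 0.049 and Jup between -0.089 and 0.38, and Ctnna3, where it passed the filter, was -0.48 to -0.32. Cdh2 and Dsg2 kept their direction in all 18, of which the filter and eBayes settings could not change it.

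The count of called genes was 8 with array quality weights, 6 among probe sets, and none was a junction gene. The marker Krt8 was among the 8, at a log2 difference of 1.00 (limma adjusted p = 0.0413 with these weights). Leaving out 1 array gave 0 to 2 called genes and 0 to 2 probe sets, with 2 of each without knockout 1 and 1 gene without knockout 66. The median of the junction genes was -0.067 to 0.054 with 1 array left out, and desmosome minus adherens junction was -0.10 to 0.20. Both include Ctnna3 wherever it passed the filter. The other alternatives run for each (array quality weights were not run for the latter, and the eBayes settings change neither value and were not run) moved neither by more than the spread within genotypes. No paired analysis was possible because the genotypes share no replicate numbers. The dim readings of Ctnna3 and the wide spread between arrays in Dsc2 and Jup limit what can be said of these genes.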
